A study of Mus musculus with 18 samples.

Results

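The proteasome genes of J774 macrophages were followed on arrays after exposure to talc, titanium dioxide (TiO2) and estradiol. The set was chosen by name: every gene whose symbol is Psma, Psmb, Psmc, Psmd or Psme followed by a digit, or Psmg followed by a digit, plus Pomp, in the annotation of the array platform. It holds 49 of 23102 genes. No measured value enters that rule, but the set was taken up with earlier results of these data known, so its counts describe these arrays and are no independent evidence. Of the 49, 48 are subunits, activators or assembly factors of the proteasome, and Psmc3ip, a factor of meiotic recombination, only shares the letters of the name.

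J774 is a mouse macrophage cell line, kept here in medium free of phenol red. Its cells were treated in 24-well plates for 24 h. The 6 groups were talc plus estradiol, talc, TiO2 plus estradiol, TiO2, estradiol, and vehicle, with 3 arrays each. Particles were given at 10 µg per well and estradiol, called estrogen in the sample labels, at 2 µg/mL. TiO2 stands as another particle beside talc, and every group is of the same line, with no primary macrophages. Nothing in the labels tells if a group's 3 arrays are separate cultures. The p-values therefore cover the spread between these arrays alone, and that spread may be technical. Array numbers in the labels run on from group to group, so group and order of handling cannot be told apart.

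The proteasome is the barrel-shaped protease that degrades proteins tagged with ubiquitin. Its core is built of alpha rings, which gate the entry, and beta rings, which hold the catalytic sites, and a cap made of a base and a lid recognises, unfolds and feeds in the substrate. In macrophages and other immune cells the catalytic subunits Psmb5, Psmb6 and Psmb7 can be replaced by the interferon-inducible Psmb8, Psmb9 and Psmb10, which gives the immunoproteasome known for making peptides for MHC class I. Transcription factors of the NRF family, NRF1 (Nfe2l1) above all, are known to raise the genes of the constitutive subunits together, through antioxidant response elements.

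The promoters of both catalytic pairs that the results below turn on are shown, so they were picked with those results known. Each run is the 250 bases before the gene's start in RefSeq, build GRCm38.p6, 5′ to 3′ on the gene's strand. Capitals mark a match, on either strand, to the antioxidant response core TGACNNNGC (in Psmb5 and Psmb6), to the gamma-activated site TTCNNNGAA (in Psmb8), or to the interferon-stimulated element GAAANNGAA (in none of the 4). Psmb5 lies at chr14:54617996-54618245, minus strand. Psmb6 lies at chr11:70525107-70525356, plus strand. Psmb8 lies at chr17:34197945-34198194, plus strand. Psmb9 lies at chr17:34187331-34187580, minus strand.
Psmb5: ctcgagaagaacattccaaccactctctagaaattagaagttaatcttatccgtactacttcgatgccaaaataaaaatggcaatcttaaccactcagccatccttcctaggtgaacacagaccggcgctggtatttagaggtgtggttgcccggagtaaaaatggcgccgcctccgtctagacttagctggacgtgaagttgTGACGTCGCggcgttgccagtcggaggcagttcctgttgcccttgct
Psmb6: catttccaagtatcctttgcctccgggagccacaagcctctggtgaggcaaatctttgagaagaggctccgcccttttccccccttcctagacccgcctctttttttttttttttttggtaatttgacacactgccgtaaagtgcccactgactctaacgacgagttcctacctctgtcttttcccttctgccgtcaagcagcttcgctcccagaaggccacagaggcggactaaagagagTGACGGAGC
Psmb8: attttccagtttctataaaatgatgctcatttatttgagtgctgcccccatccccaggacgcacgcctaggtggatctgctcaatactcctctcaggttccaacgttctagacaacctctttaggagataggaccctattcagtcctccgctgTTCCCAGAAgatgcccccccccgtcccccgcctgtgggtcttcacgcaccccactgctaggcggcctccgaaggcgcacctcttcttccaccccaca
Psmb9: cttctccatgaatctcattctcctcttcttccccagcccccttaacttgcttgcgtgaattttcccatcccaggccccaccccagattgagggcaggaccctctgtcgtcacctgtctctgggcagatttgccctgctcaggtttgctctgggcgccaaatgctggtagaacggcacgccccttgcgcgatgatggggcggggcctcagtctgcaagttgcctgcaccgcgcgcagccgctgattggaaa
The match in Psmb5 begins at base -47 and that in Psmb6 at base -9, counted back from the start, and the one in Psmb8 at base -97. Of the 49 genes, 41 had a promoter in the RefSeq table, and 6 of those 41 (14.6%) held the antioxidant core within the table's window around the start, against 14% of all 27025 genes with a promoter there. These 6 were Psmb5 and Psmb6, Psmd9 and Psmd12, which also rose with talc over both arms, and Psmc6 and Psme4, which were not called. The core was absent from Psmd8, Psmd10, Psmc4, Psmc5 and Psmd11, which rose too. The interferon-stimulated element stood in 8 of 41 (19.5%), against 9.76% of all genes, the gamma-activated site in 3 of 41 (7.32%), against 9.55%, and the CCAAT box in 15 of 41 (36.6%), against 41.1%. The interferon-stimulated element was in none of Psmb8, Psmb9 and Psmb10. None of these motifs overlapped another where capitals are printed. A match is a string of letters in a short window, and no binding was measured here.

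Each array gave an intensity per probe set, and the log2 intensities of a gene's probe sets with 1 symbol each were averaged to its value. Array medians were alike, between 45.6 and 48.0 on the linear scale, and the lowest correlation between any 2 arrays was 0.983 over genes. The 49 genes rest on 569 probe sets, and 45 of the 49 lay above the median level of all genes, 4.73. The exceptions were Psma5, Psmg4, Psma8, a subunit known from testis, and Psmb11, a subunit known from thymus. Of 10 macrophage markers, 10 lay above that median and 8 in the top 10% of genes. None of the markers for T cells, B cells or granulocytes lay above the median, and 1 of 5 for fibroblasts and 2 of 5 for epithelium did. Over both talc arms no marker of another cell type passed the test, and of the macrophage markers 1 was higher and 2 lower. The part of these in the results was not tested. In such bulk samples, a change in the number of cells of a kind and a change in RNA per cell cannot be told apart. Pseudogenes of proteasome genes exist, and cross-hybridisation of probe sets was not tested.

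With talc, most genes of the constitutive proteasome lay higher and many passed the test, whereas with TiO2 against its controls none passed. A gene was called at an adjusted p under 0.05 in limma, with Benjamini-Hochberg adjustment over all genes. Over both arms, that is the mean of talc plus estradiol against estradiol and talc against vehicle, 22 of the 49 genes rose and 2 fell (Psmb9 and Psme2). The median change was 0.23 on the log2 scale, against 0.01 over all genes, and 43 of 49 were above 0. Among all genes 7.92% rose and 6.87% fell in that comparison. Among genes above the median level, 14.9% rose and 12.8% fell. Of the 49, 45 are in that brighter part.

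In each arm alone fewer genes passed. With talc against vehicle, 6 rose and 1 fell, against 3.94% and 4.52% of all genes, with a median of 0.19. Among the 11551 genes above the median level, 827 rose and 998 fell. With talc plus estradiol against estradiol, 10 rose and 1 fell, against 4.13% and 3% of all genes, with a median of 0.26. Of the same 11551 brighter genes, 900 rose and 632 fell. These arms share no array. Of the 49 genes, 40 (81.6%) were above 0 in both arms, against 32.4% of all genes and 39.2% of genes above the median level. Psmb5, Psmb6, Psmd8 and Psmd10 were called higher in both arms. Of these, only Psmb5 kept its calls in all 13 alternatives of each arm. With 1 array left out, calls for talc against vehicle numbered 4 to 6 in place of 7 (4 without vehicle 1). For talc plus estradiol against estradiol they numbered 6 to 9 in place of 11 (6 without talc plus estradiol 3, estradiol 1 or estradiol 2, and 7 without talc plus estradiol 2). Over both arms they numbered 14 to 22 in place of 24 (14 without estradiol 2). Of those 24 calls, 8 held in all 19 alternatives.

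**Figure D1:**
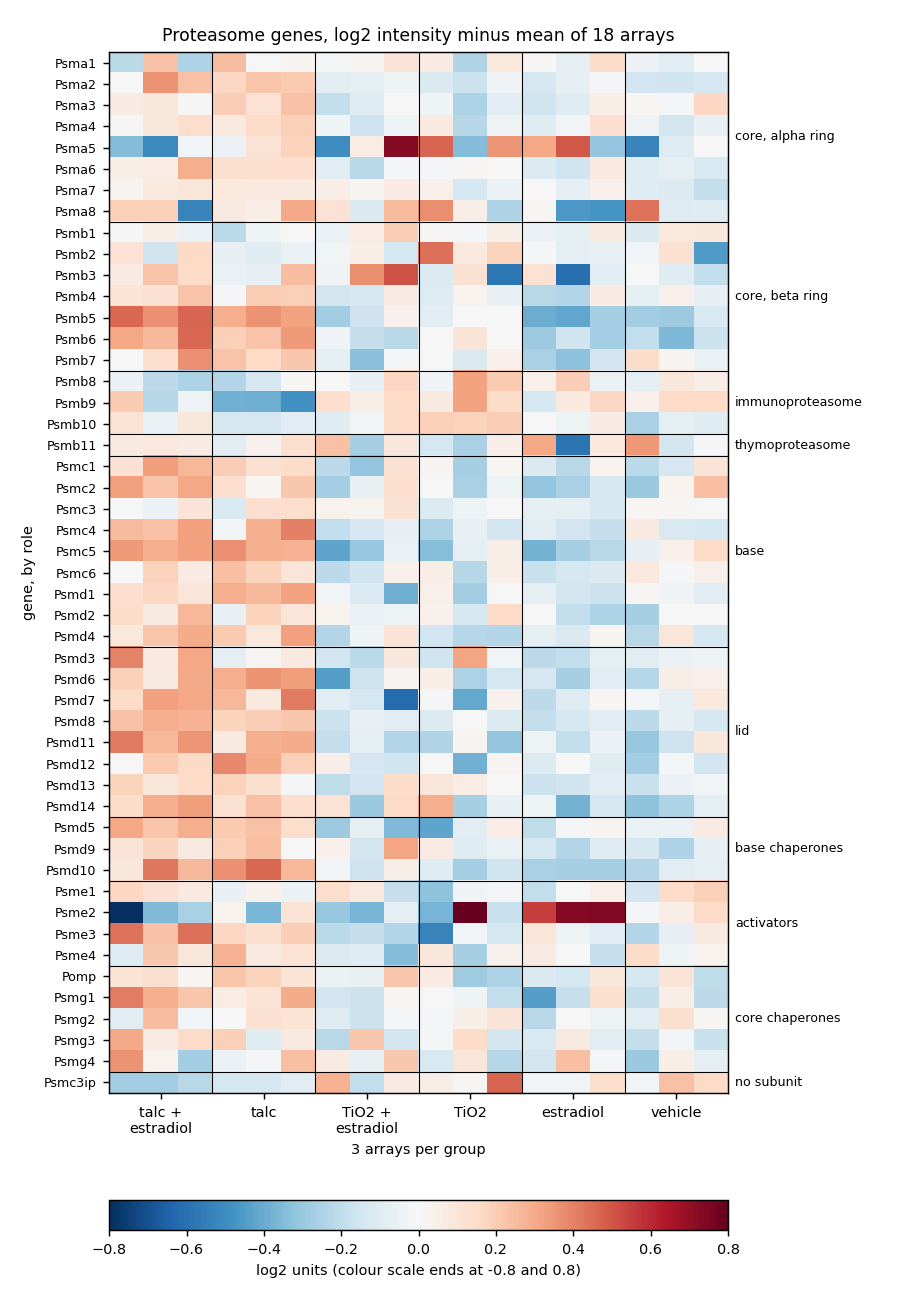
Each row is a proteasome gene, grouped by role, and each column an array, 3 per group, with talc plus estradiol at the left and vehicle at the right. Colour gives the log2 intensity minus that gene's mean over the 18 arrays. The 6 talc-treated columns are mostly above the mean in base and lid rows, and the immunoproteasome rows are not.

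Per array, when each gene was centred on its mean over the 18 arrays, the median of the 49 genes was 0.11, 0.17 and 0.16 log2 units in the talc plus estradiol arrays, against -0.11, -0.14 and -0.06 in the estradiol arrays. It was 0.13, 0.12 and 0.15 in the talc arrays, against -0.10, -0.03 and -0.04 in the vehicle arrays. In the TiO2 plus estradiol arrays it was -0.09, -0.11 and 0.03, and in the TiO2 arrays -0.004, -0.06 and -0.01. All 6 talc-treated arrays, those with and without estradiol, lay above the other 12, and the median of all genes stayed between -0.02 and 0.01 in every array.

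**Figure D2:**
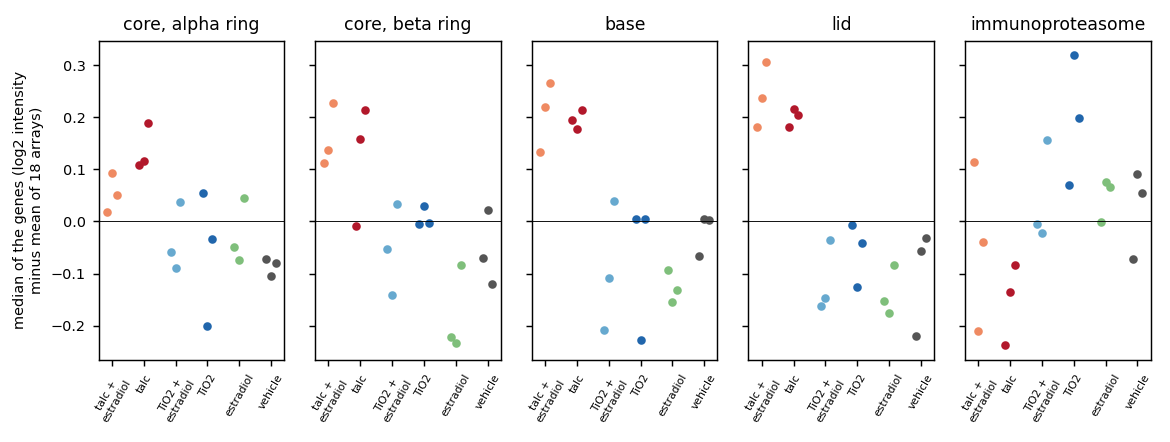
Points are the median, over the genes of a role, of log2 intensity minus each gene's mean over 18 arrays, 1 point per array and 6 groups on the x axis in each panel. In the lid panel the 6 talc-treated arrays sit between 0.18 and 0.31 and the others below 0, and in the immunoproteasome panel the 3 arrays with talc alone lie below all vehicle, estradiol, TiO2 and TiO2 plus estradiol arrays and overlap only those with talc plus estradiol.

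By role, 12 of the 22 genes that rose over both arms belong to the cap. There 6 of 9 base genes and 6 of 8 lid genes rose, with medians of 0.29 and 0.34, and none of either fell. All 3 assembly chaperones of the base rose (median 0.28). Of the core, 3 of 7 constitutive beta genes rose (median 0.24), and these 3 are its catalytic subunits. Of 8 alpha genes 2 rose (median 0.15). Of 5 assembly factors of the core 1 rose (median 0.19). Of 4 activators 1 rose and 1 fell (median 0.08). Of the 3 immunoproteasome genes none rose and 1 fell (median -0.19). With TiO2 over both arms none of these genes was called. The constitutive beta genes had a median of 0.18 there, with 7 of 7 above 0, against 6 of 7 with talc. The TiO2 medians were 0.03 for alpha, -0.02 for base, 0.03 for lid and 0.07 for immunoproteasome genes. Whether roles differ from each other was not tested.

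Psmb5 carries the chymotrypsin-like activity of the core, and had the smallest p of the set. Psmb5 had log2 intensities of 9.16, 9.06 and 9.17 with talc plus estradiol, against 8.30, 8.28 and 8.44 with estradiol. With talc alone, Psmb5 had 8.99, 9.06 and 9.02, against 8.42, 8.41 and 8.58 with vehicle. The TiO2 values of Psmb5 were 8.42, 8.54 and 8.73 with estradiol and 8.61, 8.70 and 8.69 without. All 6 talc-treated arrays lay above the other 12. Psmb5 rose by 0.55 ± 0.10 (adjusted p = 0.0014) with talc against vehicle, by 0.79 ± 0.10 (adjusted p = 0.00011) with talc plus estradiol against estradiol, and over both arms by 0.67 ± 0.07 (adjusted p = 3.3e-06), which is 1.59-fold. The change was above 0 in 7 of its 7 probe sets.

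Psmb6 is the catalytic subunit with caspase-like activity. Psmb6 on the talc plus estradiol arrays read 9.89, 9.84 and 10.03 in log2 intensity, against 9.29, 9.41 and 9.30 with estradiol. Psmb6 read 9.77, 9.80 and 9.92 with talc, against 9.38, 9.21 and 9.40 with vehicle. Psmb6 read 9.55, 9.38 and 9.35 with TiO2 plus estradiol and 9.58, 9.68 and 9.57 with TiO2. Again all 6 talc-treated arrays lay above the other 12. Its change was 0.50 ± 0.10 (adjusted p = 0.0031) with talc, 0.59 ± 0.10 (adjusted p = 0.0012) with talc plus estradiol and 0.54 ± 0.07 (adjusted p = 3e-05) over both arms, and 9 of its 9 probe sets were above 0. Group means of Psmb6 were 9.83 with talc, 9.61 with TiO2 and 9.33 with vehicle. Talc against TiO2 gave no call for Psmb6, but talc plus estradiol against TiO2 plus estradiol did. Psmb7, the subunit with trypsin-like activity, rose by 0.41 ± 0.11 (adjusted p = 0.032) with talc plus estradiol and by 0.29 ± 0.08 (adjusted p = 0.019) over both arms. With talc against vehicle Psmb7 changed by 0.16 ± 0.11 (adjusted p = 0.49), which did not pass. The Psmb7 calls were lost in 7 of 13 alternatives with talc plus estradiol and in 3 of 19 over both arms. The remaining beta genes, Psmb1, Psmb2, Psmb3 and Psmb4, which form the rest of the ring, lay between -0.05 and 0.24 over both arms, and none was called.

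Among the alpha subunits, which form the outer rings of the core, Psma2 had the smallest p. For Psma2, the log2 intensities were 8.74, 9.10 and 8.97 with talc plus estradiol, against 8.61, 8.68 and 8.73 with estradiol. Those of Psma2 with talc were 8.91, 8.96 and 8.95, against 8.59, 8.58 and 8.61 with vehicle. Psma2 stood at 8.65, 8.66 and 8.70 with TiO2 plus estradiol and at 8.62, 8.57 and 8.71 with TiO2. Psma2 was higher on all 6 talc-treated arrays than on any other. It rose by 0.31 ± 0.07 (adjusted p = 0.0042) over both arms and by 0.35 ± 0.10 (adjusted p = 0.031) with talc against vehicle, while talc plus estradiol against estradiol gave 0.27 ± 0.10 (adjusted p = 0.11). Taken from the brightest or the median probe set, the Psma2 change over both arms was no longer called, and the call against vehicle was lost in 10 of 13 alternatives, each of the 6 left-out arrays included. Psma6 rose by 0.21 ± 0.07 (adjusted p = 0.048) over both arms, close to the threshold, and lost its call in 12 of 19 alternatives. Psma1, Psma3, Psma4, Psma5, Psma7 and Psma8 were not called, with changes between -0.08 and 0.16.

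None of the immunoproteasome genes rose with talc over both arms, and Psmb9 fell. Psmb8 had log2 intensities of 8.28, 8.11 and 8.08 with talc plus estradiol, against 8.36, 8.52 and 8.27 with estradiol. With talc alone, Psmb8 had 8.08, 8.19 and 8.33, against 8.25, 8.41 and 8.38 with vehicle. The TiO2 values of Psmb8 were 8.32, 8.26 and 8.49 with estradiol and 8.30, 8.65 and 8.53 without. The groups overlapped for Psmb8, the counterpart of Psmb5. Over both arms it changed by -0.19 ± 0.08 (adjusted p = 0.16), with 3 of its 11 probe sets above 0, and its dimmest probe set changed by -1.06, the lowest of the 11. Its sign turned with the brightest probe set (0.05).

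Psmb9 on the talc plus estradiol arrays read 7.29, 6.85 and 7.04 in log2 intensity, against 6.94, 7.16 and 7.25 with estradiol. Psmb9 read 6.70, 6.69 and 6.60 with talc, against 7.12, 7.24 and 7.24 with vehicle. Psmb9 read 7.22, 7.13 and 7.24 with TiO2 plus estradiol and 7.15, 7.40 and 7.23 with TiO2. For Psmb9, the counterpart of Psmb6, all 3 arrays with talc alone lay below all vehicle and all TiO2 arrays, whereas talc plus estradiol arrays overlapped estradiol arrays. Psmb9 fell by 0.54 ± 0.12 with talc against vehicle (adjusted p = 0.0072) and changed by -0.05 ± 0.12 (adjusted p = 0.87) with talc plus estradiol against estradiol. The difference between these arms was 0.48 ± 0.16, which did not pass (adjusted p = 0.65). Over both arms Psmb9 fell by 0.29 ± 0.08 (adjusted p = 0.021), with 2 of 10 probe sets above 0. It lost that call in 5 of 19 alternatives. With the median probe set its change against vehicle was -0.13 and no longer called.

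For Psmb10, the log2 intensities were 7.58, 7.41 and 7.56 with talc plus estradiol, against 7.47, 7.43 and 7.53 with estradiol. Those of Psmb10 with talc were 7.34, 7.33 and 7.38, against 7.21, 7.39 and 7.37 with vehicle. Psmb10 stood at 7.37, 7.44 and 7.62 with TiO2 plus estradiol and at 7.66, 7.65 and 7.67 with TiO2. Psmb10, the counterpart of Psmb7, overlapped between talc and vehicle and between talc plus estradiol and estradiol. It changed by 0.04 ± 0.07 (adjusted p = 0.83) over both arms, and its sign there turned with the brightest probe set (-0.03).

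**Figure D3:**
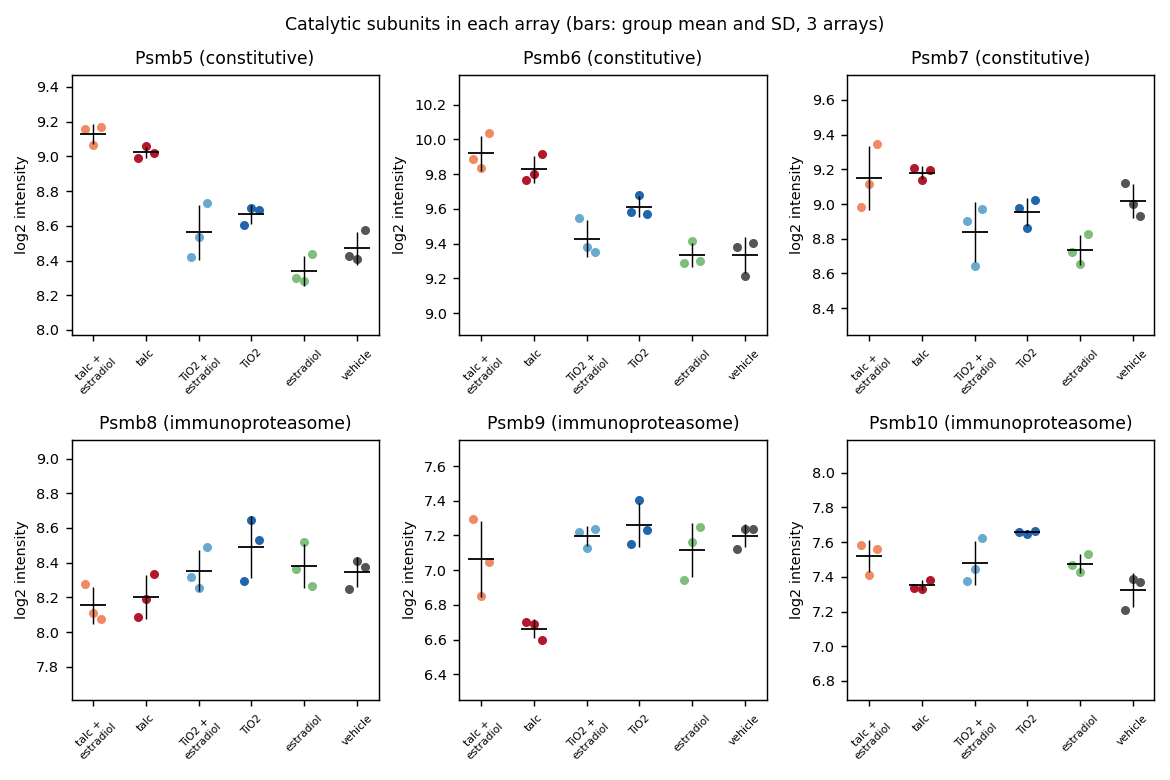
Log2 intensity in each array for the 3 constitutive catalytic genes (top) and their immunoproteasome counterparts (bottom), with bars for the group mean and SD of 3 arrays and groups on the x axis. In Psmb5 and Psmb6 the 6 talc-treated arrays lie above all others, and in Psmb9 the 3 arrays with talc alone lie below the vehicle arrays.

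The difference between the members of a catalytic pair was taken within each array, a measure chosen after the values were seen. Its size depends on the probes, so only its shift between groups is read. Psmb5 minus Psmb8 had a median of 0.90 in the 6 talc-treated arrays (lowest 0.69, highest 1.09), against 0.17 in the other 12 (lowest -0.24, highest 0.31). Psmb6 minus Psmb9 had a median of 3.03 in the 6 talc-treated arrays (lowest 2.59, highest 3.32), against 2.26 in the other 12 (lowest 1.98, highest 2.43). Neither pair overlapped between talc and the rest. Psmb5 and Psmb6 alone already did not overlap there, so this adds no separate evidence. How often other pairs of genes do so was not counted. Psmb7 minus Psmb10 had a median of 1.80 in the talc-treated arrays (lowest 1.40, highest 1.87), against 1.33 in the others (lowest 1.20, highest 1.91), and these overlapped.

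The base holds the ATPases Psmc1 to Psmc6, which unfold the substrate, with the scaffolds Psmd1 and Psmd2 and the ubiquitin receptor Psmd4. Psmc5 had log2 intensities of 8.32, 8.27 and 8.31 with talc plus estradiol, against 7.61, 7.71 and 7.76 with estradiol. With talc alone, Psmc5 had 8.35, 8.26 and 8.26, against 7.92, 8.02 and 8.14 with vehicle. The TiO2 values of Psmc5 were 7.56, 7.68 and 7.93 with estradiol and 7.64, 7.90 and 8.03 without. All 6 talc-treated arrays of Psmc5 lay above the other 12. It rose by 0.61 ± 0.12 (adjusted p = 0.0035) with talc plus estradiol and by 0.44 ± 0.08 (adjusted p = 0.0011) over both arms, and changed by 0.27 ± 0.12 (adjusted p = 0.20) with talc against vehicle.

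Psmc4 on the talc plus estradiol arrays read 9.65, 9.63 and 9.72 in log2 intensity, against 9.30, 9.24 and 9.20 with estradiol. Psmc4 read 9.37, 9.67 and 9.80 with talc, against 9.46, 9.27 and 9.25 with vehicle. Psmc4 read 9.20, 9.26 and 9.33 with TiO2 plus estradiol and 9.15, 9.33 and 9.24 with TiO2. For Psmc4, 1 talc array lay within the vehicle range and the other 5 lay above all arrays without talc. Psmc4 rose by 0.42 ± 0.11 (adjusted p = 0.026) with talc plus estradiol and by 0.35 ± 0.08 (adjusted p = 0.0040) over both arms, with 12 of its 12 probe sets above 0. The call with talc plus estradiol was lost in 10 of 13 alternatives, each of the 6 left-out arrays included.

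For Psmd1, the log2 intensities were 9.54, 9.57 and 9.51 with talc plus estradiol, against 9.33, 9.26 and 9.23 with estradiol. Those of Psmd1 with talc were 9.70, 9.67 and 9.73, against 9.42, 9.38 and 9.32 with vehicle. Psmd1 stood at 9.39, 9.30 and 9.02 with TiO2 plus estradiol and at 9.45, 9.13 and 9.40 with TiO2. Psmd1 did not overlap between the 6 talc-treated arrays and the rest. It rose by 0.30 ± 0.08 (adjusted p = 0.012) over both arms, with 22 of its 22 probe sets above 0, but its brightest probe set gave 0.09 and no call. Psmc2 rose by 0.52 ± 0.14 (adjusted p = 0.025) with talc plus estradiol against estradiol and by 0.33 ± 0.10 (adjusted p = 0.028) over both arms. Also over both arms, Psmc1 rose by 0.29 ± 0.09 (adjusted p = 0.040) and Psmd4 by 0.28 ± 0.08 (adjusted p = 0.026). These calls over both arms were lost in 11 of 19 alternatives for Psmc1, 11 of 19 for Psmd4 and 9 of 19 for Psmc2, and that of Psmc2 with talc plus estradiol in 7 of 13. Psmc3, Psmc6 and Psmd2 lay between 0.08 and 0.23 and did not pass.

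The lid sits on the base and removes the ubiquitin chains of the substrate, and Psmd8 is one of its subunits. Psmd8 had log2 intensities of 11.96, 12.01 and 12.002 with talc plus estradiol, against 11.53, 11.58 and 11.63 with estradiol. With talc alone, Psmd8 had 11.90, 11.92 and 11.94, against 11.51, 11.65 and 11.59 with vehicle. The TiO2 values of Psmd8 were 11.55, 11.67 and 11.63 with estradiol and 11.61, 11.73 and 11.62 without. All 6 talc-treated arrays of Psmd8 lay above the rest. It rose by 0.34 ± 0.08 (adjusted p = 0.015) with talc, by 0.41 ± 0.08 (adjusted p = 0.0056) with talc plus estradiol and by 0.37 ± 0.06 (adjusted p = 0.00024) over both arms. The call with talc was lost in 4 of 13 alternatives and that with talc plus estradiol in 3 of 13. The brightest probe set was among them each time. The call over both arms held in all 19.

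Psmd11 on the talc plus estradiol arrays read 9.82, 9.67 and 9.76 in log2 intensity, against 9.37, 9.21 and 9.36 with estradiol. Psmd11 read 9.48, 9.69 and 9.70 with talc, against 9.10, 9.24 and 9.50 with vehicle. Psmd11 read 9.22, 9.33 and 9.17 with TiO2 plus estradiol and 9.17, 9.43 and 9.10 with TiO2. For Psmd11, a scaffold of the lid, 1 talc array lay below the highest vehicle array and the other 5 above all arrays without talc. Psmd11 rose by 0.44 ± 0.12 (adjusted p = 0.032) with talc plus estradiol and by 0.39 ± 0.08 (adjusted p = 0.0035) over both arms. The first of these calls was lost in 10 of 13 alternatives, with each of the 6 arrays left out among them, and the one over both arms in 1 of 19.

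For Psmd6, the log2 intensities were 8.29, 8.17 and 8.40 with talc plus estradiol, against 7.96, 7.83 and 8.02 with estradiol. Those of Psmd6 with talc were 8.39, 8.46 and 8.43, against 7.87, 8.14 and 8.14 with vehicle. Psmd6 stood at 7.66, 7.93 and 8.12 with TiO2 plus estradiol and at 8.15, 7.84 and 7.96 with TiO2. All 6 talc-treated arrays of Psmd6, another scaffold of the lid, lay above the rest. Over both arms it rose by 0.36 ± 0.09 (adjusted p = 0.0089), without a call in either arm against its control.

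Psmd14 had log2 intensities of 7.05, 7.19 and 7.24 with talc plus estradiol, against 6.86, 6.52 and 6.76 with estradiol. With talc alone, Psmd14 had 7.02, 7.14 and 7.03, against 6.58, 6.65 and 6.83 with vehicle. The TiO2 values of Psmd14 were 7.01, 6.61 and 7.05 with estradiol and 7.19, 6.64 and 6.84 without. Psmd14 is the deubiquitinase of the lid. Its arrays with talc alone were above the vehicle arrays and its talc plus estradiol arrays above the estradiol arrays, but TiO2 arrays reached into the same range. It rose by 0.41 ± 0.10 (adjusted p = 0.011) over both arms, and talc against TiO2 gave 0.18 ± 0.15 (adjusted p = 0.55). Psmd12, a further scaffold, rose by 0.44 ± 0.12 (adjusted p = 0.029) with talc against vehicle and by 0.31 ± 0.08 (adjusted p = 0.016) over both arms, the first call being lost in 6 of 13 alternatives. Psmd13 rose by 0.23 ± 0.07 (adjusted p = 0.040) over both arms and lost that call in 12 of 19 alternatives. Psmd3 and Psmd7 gave 0.24 ± 0.09 (adjusted p = 0.079) and 0.31 ± 0.10 (adjusted p = 0.056), which did not pass.

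Assembly factors come next. Psmd10 on the talc plus estradiol arrays read 8.17, 8.50 and 8.34 in log2 intensity, against 7.82, 7.82 and 7.82 with estradiol. Psmd10 read 8.45, 8.54 and 8.35 with talc, against 7.85, 7.996 and 8.001 with vehicle. Psmd10 read 8.06, 7.91 and 8.13 with TiO2 plus estradiol and 7.98, 7.81 and 7.92 with TiO2. Psmd10, also called gankyrin, helps assemble the base, and its 6 talc-treated arrays lay above all others. It rose by 0.50 ± 0.10 (adjusted p = 0.0052) with talc, by 0.52 ± 0.10 (adjusted p = 0.0049) with talc plus estradiol and by 0.51 ± 0.07 (adjusted p = 0.00011) over both arms. The other base chaperones, Psmd9 and Psmd5, rose by 0.28 ± 0.08 (adjusted p = 0.024) and 0.27 ± 0.08 (adjusted p = 0.035) over both arms, and lost these calls in 6 of 19 (Psmd9) and 10 of 19 (Psmd5) alternatives. The value of Psmd9 was as low as 0.02, with the brightest probe set.

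For Psmg1, the log2 intensities were 7.50, 7.37 and 7.31 with talc plus estradiol, against 6.64, 6.90 and 7.21 with estradiol. Those of Psmg1 with talc were 7.14, 7.19 and 7.38, against 6.89, 7.13 and 6.87 with vehicle. Psmg1 stood at 6.93, 6.91 and 7.10 with TiO2 plus estradiol and at 7.08, 7.05 and 6.89 with TiO2. Psmg1, which helps build the alpha ring, was higher on all arrays with talc alone than on all vehicle arrays, and with estradiol present likewise. Across arms, however, estradiol 3 lay above 2 of the arrays with talc alone. Psmg1 rose by 0.47 ± 0.13 (adjusted p = 0.038) with talc plus estradiol and by 0.37 ± 0.09 (adjusted p = 0.011) over both arms, and these calls were lost in 8 of 13 and 1 of 19 alternatives. Pomp, which completes core maturation, Psmg2, Psmg3 and Psmg4 changed by 0.09 to 0.20 and were not called.

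The activators bind the ends of the core in place of the cap. Psme3, a nuclear activator, rose by 0.31 ± 0.09 (adjusted p = 0.023) over both arms, a call lost in 7 of 19 alternatives, and its 6 talc-treated arrays lay above the rest. Psme2, which with Psme1 forms the interferon-inducible activator, is on only 3 probe sets. Psme2 had log2 intensities of 4.33, 4.94 and 5.03 with talc plus estradiol, against 5.85, 6.03 and 6.04 with estradiol. With talc alone, Psme2 had 5.32, 4.93 and 5.40, against 5.28, 5.35 and 5.45 with vehicle. The TiO2 values of Psme2 were 4.99, 4.92 and 5.21 with estradiol and 4.92, 6.18 and 5.11 without. The estradiol arrays stood high, as did 1 TiO2 array, and the talc plus estradiol arrays lay wholly below the estradiol arrays, while talc and vehicle overlapped. Psme2 fell by 1.20 ± 0.25 with talc plus estradiol against estradiol (adjusted p = 0.0069), and by 0.67 ± 0.18 over both arms (adjusted p = 0.015). That value rests on its dimmest probe set (mean log2 intensity 3.28, change -1.72), since the others changed by -0.03 and -0.26, and no call was made with the brightest or the median probe set. Psme1 and Psme4 changed by 0.04 ± 0.09 and 0.11 ± 0.09 and were not called. Psmc3ip, the namesake that is no subunit, changed by -0.27 ± 0.09 (adjusted p = 0.066), and Psmb11 by 0.05 ± 0.13 (adjusted p = 0.89).

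**Figure D4:**
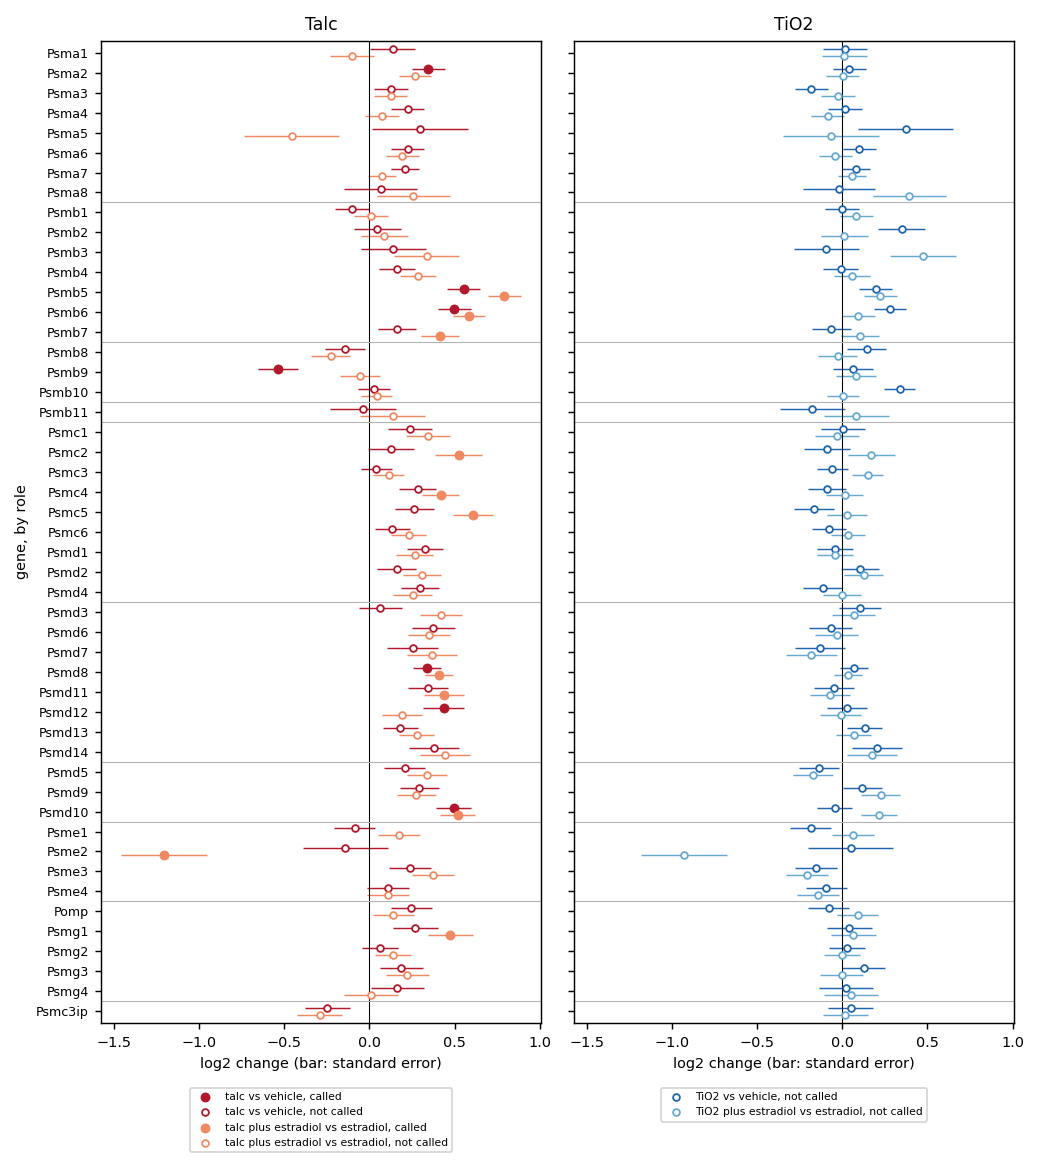
Log2 change of each of the 49 genes (rows, by role) with talc at the left and TiO2 at the right, each against its control without and with estradiol, with bars for the standard error. Filled points passed the test. Most talc points lie right of 0, with Psmb5 at 0.55 and 0.79, and no TiO2 point is filled.

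Probe sets of a gene moved largely together in the 12 members with the smallest p. That p comes from the mean of the same probe sets, so such agreement was largely set by the choice of genes. In members not so picked, 6 of 11 were above 0 for Psma1 and 12 of 20 for Psmc3, but 15 of 15 for Psmc6. All probe sets of Psmb5 (7), Psmb6 (9), Psmd8 (8), Psmc4 (12), Psma2 (11), Psmg1 (8) and Psmd1 (22) changed above 0 over both talc arms. Psmd10, Psmc5, Psmd11 and Psmd6 had 1 probe set each below 0. Psmd14 had 3 of 22 below 0, the lowest at -0.46. Because a gene's value averages its probe sets, a change in exon use within a gene would not be seen.

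**Figure D5:**
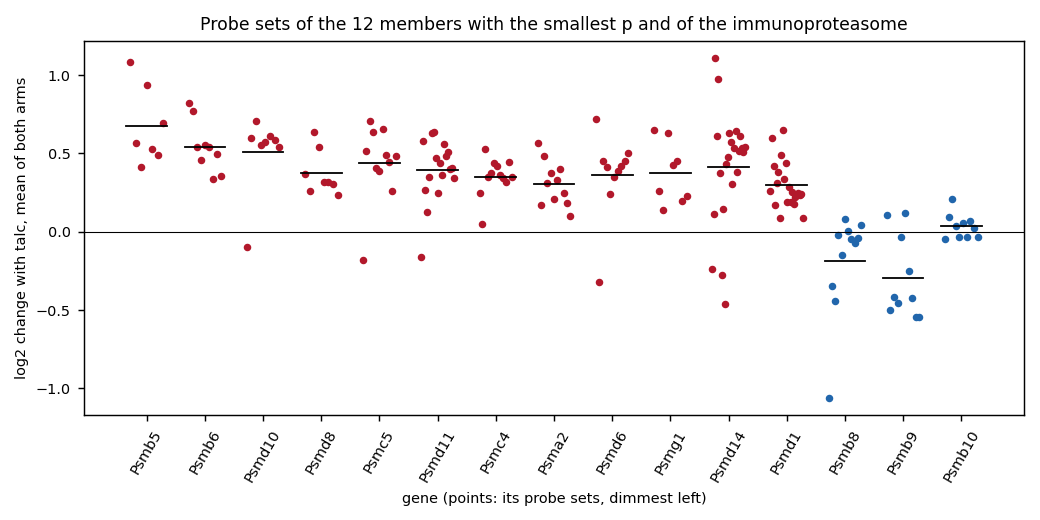
Each point is a probe set, placed by gene on the x axis and by its log2 change with talc over both arms on the y axis, with a black line at the mean of the gene. The 7 Psmb5 probe sets all lie above 0.4, whereas 8 of 10 Psmb9 probe sets and 8 of 11 Psmb8 probe sets lie below 0.

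All 6 talc-treated arrays lay above the other 12 for 10 genes: Psma2, Psmb5, Psmb6, Psmc5, Psmd1, Psmd5, Psmd6, Psmd8, Psmd10 and Psme3. This split was looked at after the values were seen. Of all genes, 3.89% had their talc-treated arrays above the rest and 2.7% below. No proteasome gene had all 6 below.

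Talc was also set directly against TiO2, given at the same 10 µg per well. With talc against TiO2, 10 of the 49 rose and 2 fell, against 4.61% and 5.35% of all genes, with a median of 0.20. Among the 11551 genes above the median level, 933 rose and 1176 fell. This comparison shares its talc arrays with that against vehicle. Psmd10 rose by 0.54 ± 0.10 (adjusted p = 0.0026), Psmc5 by 0.43 ± 0.12 (adjusted p = 0.024) and Psmb5 by 0.36 ± 0.10 (adjusted p = 0.026). In the lid, Psmd8 rose by 0.27 ± 0.08 (adjusted p = 0.048), Psmd11 by 0.39 ± 0.12 (adjusted p = 0.045), Psmd6 by 0.44 ± 0.13 (adjusted p = 0.033) and Psmd12 by 0.41 ± 0.12 (adjusted p = 0.038). In the base, Psmc4 rose by 0.37 ± 0.11 (adjusted p = 0.037), Psmd1 by 0.37 ± 0.11 (adjusted p = 0.036) and Psmd4 by 0.41 ± 0.11 (adjusted p = 0.028). Those that fell were Psmb9, by 0.60 ± 0.12 (adjusted p = 0.0031), and Psmb10, by 0.31 ± 0.09 (adjusted p = 0.044). For Psmb10 the group mean was 7.35 with talc, 7.32 with vehicle and 7.66 with TiO2, so it was not lower with talc than with vehicle. When each array's median over genes was subtracted, 2 rose and 2 fell. Of these 12 calls, Psmd10 held in all 13 alternatives and Psmb9 lost 1, and each of the other 10 was lost in 6 to 10 of 13. With 1 array left out the 12 calls became 2 to 8: 2 without talc 3, 3 without talc 2, 4 without talc 1, 5 without TiO2 3, 7 without TiO2 1 and 8 without TiO2 2.

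With talc plus estradiol against TiO2 plus estradiol, 9 rose and none fell, against 6.66% and 2.87% of all genes, with a median of 0.21. Among the 11551 genes above the median level, 1485 rose and 482 fell, and their median was 0.08. With quantile normalization the median of the 49 genes was 0.11. Psmb5 rose by 0.57 ± 0.10 (adjusted p = 0.0016) and Psmb6 by 0.49 ± 0.10 (adjusted p = 0.0041). Of the lid, Psmd8 rose by 0.37 ± 0.08 (adjusted p = 0.0085), Psmd11 by 0.51 ± 0.12 (adjusted p = 0.012) and Psmd7, the partner of Psmd14, by 0.55 ± 0.15 (adjusted p = 0.025). Of the base, Psmc5 rose by 0.58 ± 0.12 (adjusted p = 0.0043) and Psmc4 by 0.40 ± 0.11 (adjusted p = 0.026). Psmd5 rose by 0.51 ± 0.12 (adjusted p = 0.011) and Psme3 by 0.58 ± 0.12 (adjusted p = 0.0066). Psmc4 lost this call in 9 of 13 alternatives and Psmd7 in 7, and the other 7 genes in 1 to 3. With 1 array left out the count was 7 to 10.

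TiO2 against its controls gave no call. With TiO2 against vehicle 0 of 49 genes passed in limma (0% of all genes), with a median of 0.02 and 3 members at an unadjusted p under 0.05, against 8.16% of all genes. The smallest p was that of Psmb10, which changed by 0.34 ± 0.09 (adjusted p = 0.42). With TiO2 plus estradiol against estradiol, 0 passed (0.00433% of all genes), with a median of 0.03 and 3 members at an unadjusted p under 0.05, against 8.91% of all genes, led by Psme2 at -0.93 ± 0.25 (adjusted p = 0.40). Over both arms 0 passed (0% of all genes), with a median of 0.03 and 5 members at an unadjusted p under 0.05, against 8.94% of all genes. Psmb5 had the smallest p there, at 0.21 ± 0.07 (adjusted p = 0.37). For 48 of the 49 genes the 95% interval of the change with TiO2 over both arms lay within 1.5-fold in either direction.

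Estradiol alone, and on top of either particle, gave no call in these genes. With estradiol against vehicle 0 of 49 passed in limma (0% of all genes), with 3 at an unadjusted p under 0.05, against 4.87% of all genes, and the smallest p was for Psmc5 at -0.33 ± 0.12 (adjusted p = 0.98). With talc plus estradiol against talc 0 passed (0% of all genes), with 1 at an unadjusted p under 0.05, against 6.58% of all genes, which was Psmb9 at 0.40 ± 0.12 (adjusted p = 0.71). With TiO2 plus estradiol against TiO2 0 passed (0.00866% of all genes), with 1 at an unadjusted p under 0.05, against 13% of all genes, which was Psmb3 at 0.47 ± 0.19 (adjusted p = 0.32). Intervals within 1.5-fold were found for 46, 45 and 46 of the 49 genes in these 3 comparisons. The interaction of talc with estradiol, which asks whether talc acted otherwise when estradiol was present, gave 0 calls (0% of all genes) and a median of 0.07. There 2 members had an unadjusted p under 0.05, against 6.32% of all genes, led by Psme2 at -1.06 ± 0.36 (adjusted p = 0.64). The interaction of TiO2 with estradiol gave 0 calls (0% of all genes), with 2 at an unadjusted p under 0.05, against 8.05% of all genes, led by Psme2 at -0.98 ± 0.36 (adjusted p = 0.51). With a median standard error of 0.16 for an interaction, against 0.12 for 3 arrays against 3, the intervals of 34 and 40 genes lay within 1.5-fold in the interactions of talc and of TiO2.

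Genes that work beside the proteasome were read from lists. Of 20 associated factors listed, 18 were measured, and 9 rose and none fell with talc over both arms, with a median of 0.24. The shares over all genes were the 7.92% higher and 6.87% lower given above, or 14.9% and 12.8% among genes above the median level. The receptor and deubiquitinases of the cap rose, Adrm1 by 0.48 ± 0.07 (adjusted p = 8.1e-05), Usp14 by 0.51 ± 0.08 (adjusted p = 0.00036) and Uchl5 by 0.41 ± 0.08 (adjusted p = 0.0017). So did shuttles that bring ubiquitinated proteins, Rad23b by 0.33 ± 0.06 (adjusted p = 0.0013), Ubqln1 by 0.31 ± 0.06 (adjusted p = 0.0026) and Ubqln4 by 0.35 ± 0.08 (adjusted p = 0.0054). Of 6 genes for ubiquitin and its activation only Uba6, an activating enzyme, was measured, and it rose, by 0.30 ± 0.09 (adjusted p = 0.029). Of 8 genes of the NRF route, 2 rose and none fell (median 0.14), both small Maf proteins that pair with NRF factors, Mafk by 0.42 ± 0.08 (adjusted p = 0.0022) and Maff by 0.31 ± 0.10 (adjusted p = 0.043). With TiO2 over both arms Mafk changed by 0.27 ± 0.08 (adjusted p = 0.35) and Maff by 0.21 ± 0.10 (adjusted p = 0.56). Talc against TiO2 gave 0.17 ± 0.12 (adjusted p = 0.46) for Mafk and 0.09 ± 0.14 (adjusted p = 0.77) for Maff, neither called. Over both talc arms Nfe2l1 changed by 0.16 ± 0.06 (adjusted p = 0.13) and Nfe2l2 by 0.18 ± 0.07 (adjusted p = 0.075), which did not pass. Against TiO2, talc gave 1 call in this list, Nfe2l2 at 0.33 ± 0.09 (adjusted p = 0.032). Of 8 genes for interferon control and class I peptide loading, 7 were measured and 1, Irf1, an interferon-regulated transcription factor, fell by 0.25 ± 0.08 (adjusted p = 0.034), with a median of -0.11 for the list. Irf1 passed in neither arm alone (adjusted p = 0.077 with talc and 0.42 with talc plus estradiol). Against TiO2, talc gave 2 calls in this list, both lower. They were Irf1 at -0.54 ± 0.11 (adjusted p = 0.0036) and Tap2 at -0.42 ± 0.12 (adjusted p = 0.0355). These lists were written with earlier results known, so their counts describe and do not test.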

How the data were processed

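RNA was measured on 18 Affymetrix arrays. The deposited values are intensities per probe set on a linear scale, from 1.458 to 17256, made by the authors with RMA per the submitters' processing notes. Its version, its summary level and any step back from log2 are not given in the sources used here. Here log2 was taken. Probe sets were named through the platform annotation, with 2247 symbols updated through RefSeq synonyms: 233753 of 269751 had 1 symbol, 5106 had several and 30892 had none, and only the first kind was used. limma 3.58.1 (R 4.3.3) fitted 1 mean for each group over the 18 arrays and 23102 genes, with no filter, and was tested on simulated data. It gave 13 contrasts, two-sided, with errors of log2 changes as standard errors (12 residual and 4.57 prior degrees of freedom). The number of arrays limits the precision. No 2 arrays were identical.

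Per-array values are given for the 12 genes with the smallest p over both talc arms and for Psmb8, Psmb9 and Psmb10. Other genes called in a pairwise contrast are named with their values, as are up to 6 called genes per list. Per-array values of Psme2 were added after they were seen. The genes, lists and tests were chosen with earlier results of these data known. Of 42 list genes 34 were measured, and the others are not analysed here. Replicate numbers were given in accession order. Alternatives were the brightest or the median probe set, quantile normalization, subtracted array medians, a filter on low values, a trended robust variance, only the arrays compared, and each array left out. Promoters came from RefSeq (GRCm38.p6).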

Additional observations from a re-analysis of the deposited data

How the results depend on the processing

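The number of genes called held within 1.5 times of its main count over both talc arms under each other setting but the left-out arrays, and the direction of every called gene held in every alternative. Which genes were called did change. There the brightest probe set lost Psma2, Psmc1, Psmc2, Psmd1, Psmd4, Psmd9, Psmd13, Psme2 and Psmg1. The median probe set lost Psma2, Psmb9, Psmc1, Psmc2, Psmd4, Psmd5, Psmd6, Psmd11, Psme2 and Psme3. With the brightest probe set the calls numbered 5 for talc plus estradiol against estradiol, 6 for talc against TiO2 and 5 for talc plus estradiol against TiO2 plus estradiol. With the median probe set they were 5, 6 and 2 in that order. Quantile normalization gave 7 for talc plus estradiol against estradiol. Subtracted array medians gave 4 for talc against TiO2 and 17 for talc plus estradiol against TiO2 plus estradiol. With genes above the median level the calls numbered 13 for talc against vehicle, 20 for talc plus estradiol against estradiol and 17 for talc plus estradiol against TiO2 plus estradiol. With a trended robust variance these were 12, 18 and 17. With only the arrays compared, which leaves fewer samples, they were 4 for talc against vehicle, 6 for talc plus estradiol against estradiol, 2 for talc against TiO2 and 4 for talc plus estradiol against TiO2 plus estradiol. The cause of these differences in count was not tested. Leaving out 1 array gave 4 to 6, 6 to 9, 14 to 22, 2 to 8 and 7 to 10 calls for talc against vehicle, talc plus estradiol against estradiol, both talc arms, talc against TiO2, and talc plus estradiol against TiO2 plus estradiol. The 8 comparisons with no call kept 0 under every alternative.

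Of the 24 genes called over both talc arms, 8 kept their call in all 19 alternatives: Psmb5 (0.66 to 0.76), Psmb6 (0.35 to 0.56), Psmd10 (0.47 to 0.56), Psmd8 (0.23 to 0.42), Psmc5 (0.39 to 0.48), Psmc4 (0.31 to 0.43), Psmd14 (0.36 to 0.58) and Psmd12 (0.28 to 0.39). The median change of the 49 genes over both talc arms stayed between 0.20 and 0.29. With the brightest probe set 40 of 49 were above 0, against 43 as reported. Signs were followed for all 49 genes over both talc arms and, in the other comparisons, for genes with per-array values or called under some setting, and those that turned were of values not called. With the brightest probe set they were Psmb8 against vehicle (0.13) and over both arms (0.046), and Psmb10 against vehicle (-0.15), over both arms (-0.033) and with estradiol against TiO2 (-0.12). Over both arms Psma1 (-0.19), Psma5 (0.069), Psma8 (-0.60), Psmb1 (0.070), Psmb11 (-0.026), Psmc3 (-0.044) and Psme1 (-0.014) turned too. Psmd1 turned with estradiol against its control (-0.036), as did Psmd13 against TiO2 (-0.021). With the median probe set they were Psmb10 against vehicle (-0.076), Psmb8 with estradiol against its control (0.18) and against TiO2 (0.32), Psmd14 against TiO2 (-0.095), and over both arms Psma1 (-0.0026), Psma5 (0.071) and Psmc3 (-0.016). Quantile normalization turned Psmb10 with estradiol against its control (-0.015) and against TiO2 (-0.10). Leaving out 1 array gave Psmb10 -0.028 to 0.060 against vehicle and -0.015 to 0.11 with estradiol against TiO2, and Psmb9 -0.17 to 0.051 with estradiol against its control. Over both arms it gave Psma1 -0.060 to 0.060, Psma5 -0.20 to 0.0052, Psmb11 -0.080 to 0.14, Psmb2 -0.017 to 0.13 and Psme1 -0.010 to 0.075. No paired analysis was possible because array numbers run on across groups and no label pairs them.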
